A study of Rattus norvegicus with 12 samples.

Results

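The 10 genes described here encode the urea cycle and the enzymes that feed it with nitrogen, and their RNA was compared between rats with a thermal injury and sham-treated rats 2, 4 and 7 days after the injury. They were chosen by name. Their members are the probe sets to which the platform's annotation gives exactly 1 gene, that gene being Cps1, Otc, Ass1, Asl, Arg1, Glul, Glud1, Gls2, Got1 or Gpt. These were 15 of 15866 probe sets, or 10 of 10411 genes. Cps1, Asl and Glud1 had several probe sets, as did Glul, and the remaining 6 genes had 1 each. No filter on low values was used, so all 10 genes were tested.

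Each sample pairs the RNA of sham rats (channel 1) with that of thermally injured rats (channel 2) of the species Rattus norvegicus, and was deposited as a log2 ratio for every probe set of the Affymetrix RAE230A array. There were 3 samples on each of days 2, 4 and 7, which are the 9 arrays used here. The 3 day 1 arrays were not used, because their identifiers do not match those of the other days. The sources used here give no tissue, strain or age of the rats and no extent of the burn. They do not say that samples of 1 day are different rats, so the p-values measure only the spread between these samples, which may be technical. Nor do they state which channel is the numerator. Injury over sham is likely from the channel order, and a value above 0 is taken to mean more RNA after injury. In bulk RNA, fewer cells of a type and less RNA per cell cannot be told apart. For arrays, their number limits the precision. In simulated data, 0% of genes changed by 0.5 on the log2 scale passed the threshold on day 2. A gene that does not pass may therefore still have changed.

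The urea cycle turns ammonia, which is toxic to the brain, into urea that the kidney excretes. In mammals the whole cycle runs in the hepatocytes around the portal vein, its opening steps in the mitochondrion and the rest in the cytosol. Transaminases move amino groups from amino acids onto glutamate and aspartate, glutamate dehydrogenase and liver glutaminase release ammonia for the cycle, and hepatocytes around the central vein catch what escapes it as glutamine. Severe burns are known for breakdown of muscle protein and for loss of nitrogen as urea.

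No member passed the threshold, an adjusted p under 0.05 over all 10411 genes in limma, on any day, in the mean of the 3 days, or between days. The background was as low: the same fit called 0% of genes on day 2, 0% on day 4, 0% on day 7, 0.0384% (4 genes) in the mean of the 3 days, and 0% between days. At the level of probe sets 0 of 15 were called too, beside 0.0063% of all probe sets on day 7, 0.0126% in the mean, 0.0063% for day 7 minus day 4 and 0% in the other comparisons. At an unadjusted p under 0.05, 2 of 10 members passed on day 2 against 7.77% of all genes, 0 on day 4 against 8.81%, 1 on day 7 against 10.9% and 1 in the mean against 8.98%. Between days the counts were 0 in the F test against 10%, 1 for day 4 minus day 2 against 7.59%, 0 for day 7 minus day 4 against 11.7% and 0 for day 7 minus day 2 against 7.45%. Of the 15 probe sets, 2 passed that level on day 2 (7.98% of all probe sets), 0 on day 4 (8.17%), 2 on day 7 (11.3%), 2 in the mean (9.26%) and 2 in the F test (9.75%). For day 4 minus day 2, day 7 minus day 4 and day 7 minus day 2 the probe sets were 1, 2 and 1, beside 7.45%, 11.1% and 7.45% of all. A limma fit whose variance prior follows the brightness of a probe set called 0 of the 10 members too, with 0.144%, 0%, 0.048% and 0.327% of all genes called on days 2, 4 and 7 and in the mean, 0.00961% in the F test and 0.0288% for day 7 minus day 4. Of the 15 probe sets that fit also called 0, where it called 0.107%, 0.0063%, 0.0567% and 0.309% of all on the 3 days and in the mean, and 0.0189% for day 7 minus day 4. The median of the 10 members' log2 ratios was 0.15 on day 2, -0.12 on day 4 and -0.04 on day 7, beside 0.0047, 0.0063 and -0.013 over all genes. Above 0 lay 7, 4 and 4 members on the 3 days, where 50.8%, 51% and 48.4% of all genes did.

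**Figure D1:**
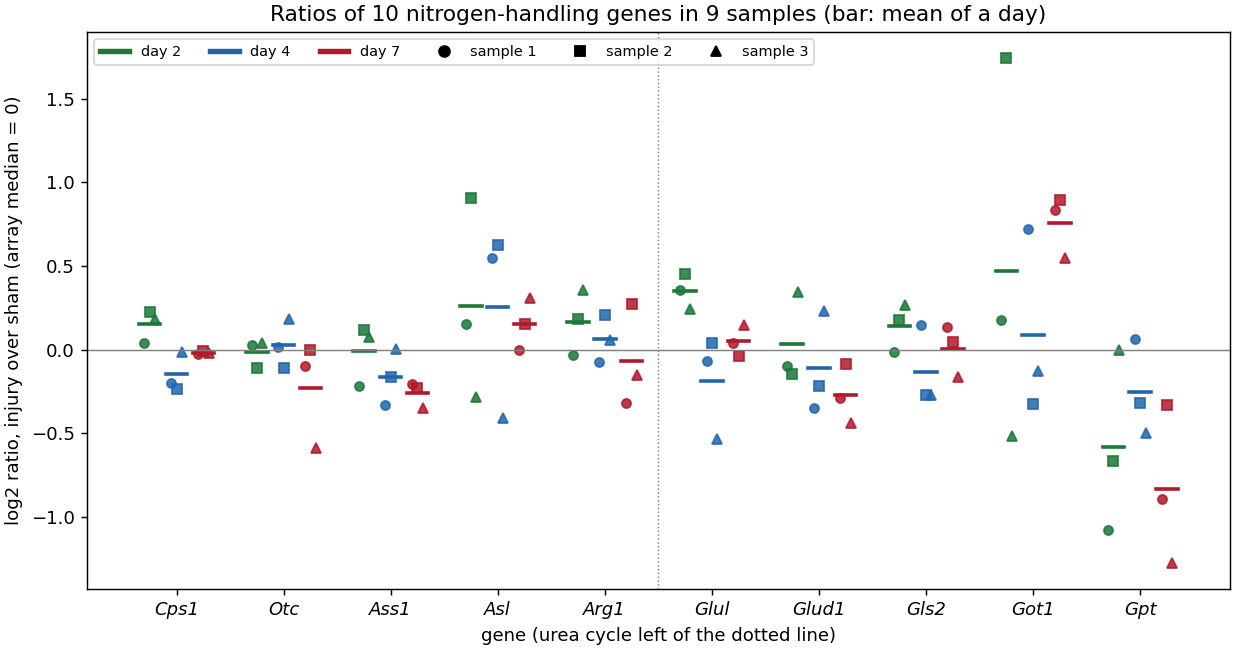
Log2 ratio of injury over sham (vertical axis, 0 at the array median) for 10 genes in the 9 samples. Colours mark the day, symbols the sample number within a day, and short bars the mean of 3 samples. Cps1 stayed between -0.23 and 0.23, while Got1 ran from -0.52 to 1.75 and Gpt from -1.28 to 0.07.

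The members differed in their spread, and they are grouped here by eye, after the values were seen. Of the 36 values of Cps1, Otc, Ass1 and Arg1, 35 (97.2%) were within 0.5 of 0 on the log2 scale, or less than 1.41-fold from equality, where 71.4% of the values of all genes were. Of the 27 values of Asl, Got1 and Gpt, 14 (51.9%) were. For all 5 urea cycle genes, with Asl, the share was 91.1%, and for all 10 members 83.3%. Glud1 and Gls2 had all 9 of their values in that range and Glul 8 of 9, so it was not particular to the first group. The SD within days, pooled over the 3 days, was 0.149 for Ass1 and 0.088 for Cps1. Only 0.384% of all genes lay under the Cps1 value, but it belongs to the average of its probe sets. On day 7 that average had an SD of 0.01, where 1370151_at and 1384334_at alone had 0.10 and 0.11. The pooled SD was 0.449 for Gpt, 0.488 for Asl and 0.75 for Got1, against a median of 0.378 over all genes. All 3 of these were above that median and the other 7 members below it. Of the 135 member ratios, 25.9% could be written as a quotient of whole numbers up to 20000, the form in which 94.4% of all ratios were found. Ratios shifted at random took that form in 11.9% to 13.55% of cases per array.

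The promoter windows of Cps1 and Ass1, the members with the lowest SDs within days at the level of the gene, are shown here. That of Got1, with the highest, is shown beside them to let their make-up be compared. Each runs from 250 bases before to 50 bases after a RefSeq start on GRCr8, is written 5′ to 3′ on the strand of the gene, and has in capitals every match, on either strand, to the TATA box (TATAAA), the GC box (GGGCGG) or the CCAAT box (CCAAT). Cps1 is at chr9:76063613-76063912 (+), Ass1 at chr3:35149480-35149779 (+) and Got1 at chr1:252329822-252330121 (-).
Cps1: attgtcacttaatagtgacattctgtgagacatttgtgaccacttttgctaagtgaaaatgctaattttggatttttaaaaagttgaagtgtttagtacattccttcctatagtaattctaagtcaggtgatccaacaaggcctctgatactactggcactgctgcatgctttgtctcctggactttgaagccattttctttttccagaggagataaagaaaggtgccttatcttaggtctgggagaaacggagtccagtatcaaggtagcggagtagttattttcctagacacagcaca
Ass1: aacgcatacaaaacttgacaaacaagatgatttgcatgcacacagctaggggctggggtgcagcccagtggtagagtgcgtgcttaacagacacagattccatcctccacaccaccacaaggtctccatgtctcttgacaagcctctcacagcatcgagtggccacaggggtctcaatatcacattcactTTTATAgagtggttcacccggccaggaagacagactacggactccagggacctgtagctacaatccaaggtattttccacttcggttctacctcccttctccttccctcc
Got1: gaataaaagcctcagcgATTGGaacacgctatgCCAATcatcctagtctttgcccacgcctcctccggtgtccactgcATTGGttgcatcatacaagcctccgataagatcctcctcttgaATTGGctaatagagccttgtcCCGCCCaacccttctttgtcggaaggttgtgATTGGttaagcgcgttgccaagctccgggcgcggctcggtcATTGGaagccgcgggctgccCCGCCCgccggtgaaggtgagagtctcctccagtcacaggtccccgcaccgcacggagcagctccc
The Cps1 window had no match to any of these letters, and the Ass1 window had 1 TATA box, on the opposite strand. The Got1 window had 6 CCAAT boxes and 2 GC boxes. Windows with a TATA box made up 14.2% of all 33469 windows, with a GC box 33.1% and with a CCAAT box 37.5%. Windows were found for 8 of the 10 members, as 10 windows. GC boxes were in 6 of the 10, CCAAT boxes in 4 and a TATA box in 1. Windows of Gls2 and Glul, whose SDs within days were below the median of all genes, held GC and CCAAT boxes too. Another window of Gls2 held none of these boxes. The window of Asl, with an SD above that median, held 1 GC box and no CCAAT box. Whether boxes and SDs go together was not tested. None of these 10 held the C/EBP letters TTGCGCAA or TTNNGCAAT, the cAMP response element TGACGTCA or the glucocorticoid receptor letters AGAACA, which 0.17%, 2.33%, 1.83% and 20.7% of all windows held. These are matches of letters only.

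Cps1 encodes carbamoyl-phosphate synthetase, the mitochondrial entry step of the cycle and the one that sets its rate. Its log2 ratios were 0.04, 0.23 and 0.19 on day 2, -0.20, -0.23 and -0.02 on day 4, and -0.02, -0.01 and -0.02 on day 7. All samples of day 2 lay above 0 and all of days 4 and 7 below it. The share of all genes with such a split was not counted. The mean of day 7 was 0.07 without centring the arrays and 0.09 with 1370151_at alone. That probe set was ranked the brightest, from few recovered ratios. The daily means were 0.15 ± 0.10, -0.15 ± 0.12 and -0.02 ± 0.01 (SD, n = 3), and day 4 minus day 2 was -0.30 (limma adjusted p = 0.705). The small SD of day 7 came from averaging, since 1370151_at was at 0.09 ± 0.10 and 1384334_at at -0.13 ± 0.11. Over the 9 arrays these probe sets had r = 0.361 (exact permutation p = 0.333, adjusted 0.533). As a gene, Cps1 was 0.997-fold in the mean of the 3 days, with a 95% interval of 0.9 to 1.1, the narrowest of the 10 members. Like all intervals here, it is not adjusted for the number of genes.

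Otc, ornithine transcarbamylase, makes citrulline in the mitochondrion. It was at 0.03, -0.11 and 0.04 on day 2, at 0.02, -0.11 and 0.18 on day 4, and at -0.10, -0.0027 and -0.58 on day 7. Sample 3 of day 7 was lower than the other 8. Ass1, Glud1 and Gpt were lowest in that sample too. So was the GAPDH measure of RNA integrity described below, a 3′ minus 5′ difference (-0.80). A value below 0 means less 3′ bias in injury than in sham. The part of this measure in the Otc value was not tested. The mean of day 7, 0.854-fold (interval 0.679 to 1.07, adjusted p = 0.602), was -0.05 on the log2 scale without that sample. Over the 3 days Otc was 0.952-fold (interval 0.834 to 1.09).

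In the cytosol, Ass1 and Asl, argininosuccinate synthetase and lyase, join citrulline to aspartate and release arginine, which Arg1, arginase, splits into urea and ornithine. Ass1 was at -0.21, 0.12 and 0.08 on day 2, at -0.33, -0.16 and 0.0041 on day 4, and at -0.21, -0.23 and -0.35 on day 7. It lay below 0 in 6 of 9 samples, among them all 3 of day 7, where the mean was -0.26 ± 0.07 (SD, n = 3; 0.835-fold, interval 0.683 to 1.02, adjusted p = 0.504). Arg1 was at -0.03, 0.18 and 0.35, then at -0.07, 0.21 and 0.06, then at -0.32, 0.27 and -0.15 on the 3 days. It lay above 0 in 5 of 9 samples, and the days overlapped. Its mean of the 3 days was 1.04-fold (interval 0.905 to 1.19, adjusted p = 0.872).

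Asl differed widely between samples of a day. As the mean of its probe sets it was at 0.16, 0.90 and -0.28 on day 2, at 0.55, 0.63 and -0.41 on day 4, and at 0.00095, 0.15 and 0.31 on day 7. The samples of days 2 and 4 lay on either side of 0, and those of day 7 between them. The daily means were 0.26 ± 0.60, 0.25 ± 0.57 and 0.16 ± 0.16 (SD, n = 3), and the mean of the 3 days was 1.17-fold (interval 0.917 to 1.49, adjusted p = 0.695). Without sample 2 the mean of day 2 was -0.06.

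One of the Asl probe sets, 1367754_s_at, carries the accession of a transcript of Hnrnpab, an RNA-binding protein, although the annotation names Asl. Among the 2847 probe sets whose accession and gene could be compared, 11 (0.386%) named another gene in this way. Its ratios nevertheless followed those of the other Asl probe set, 1368916_at, whose accession is an Asl transcript, with Pearson r = 0.91 and Spearman rho = 0.933 over the 9 arrays (exact permutation p = 0.000353 and 0.00075; Benjamini-Hochberg adjusted over 8 pairs of probe sets, 0.00282 and 0.006). Without the 2 arrays farthest from its median r was 0.878, and on deviations from the day means 0.928. Against the probe set named for Hnrnpab, 1370309_a_at, it had r = 0.212 and rho = 0.317 (exact p = 0.571 and 0.41, adjusted 0.571 and 0.469). With 1368916_at alone, Asl was 1.20-fold over the 3 days (interval 0.937 to 1.54, adjusted p = 0.636 over all probe sets).

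**Figure D2:**
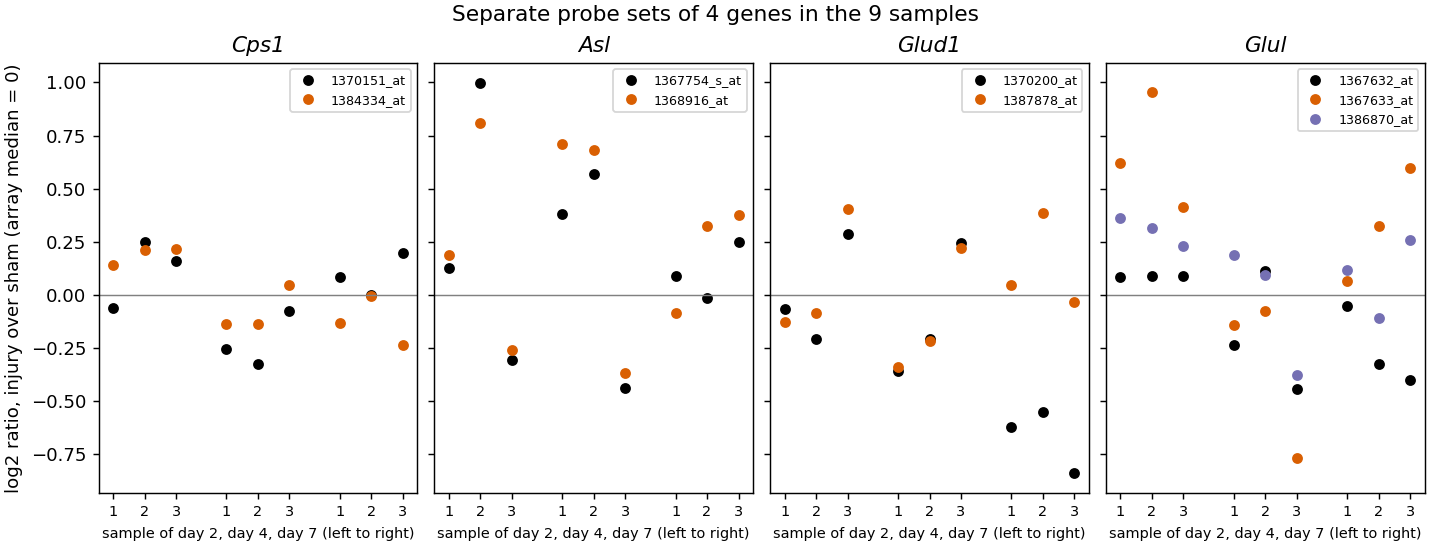
Log2 ratio of injury over sham (vertical axis) of each probe set of Cps1, Asl, Glud1 and Glul, with samples 1 to 3 of days 2, 4 and 7 from left to right and 1 colour per probe set. The Asl probe sets lay within 0.34 of each other in all 9 samples, and those of Glud1 lay within 0.125 of each other on days 2 and 4 but between 0.67 and 0.936 apart on day 7.

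Glud1, glutamate dehydrogenase, which frees ammonia from glutamate in the mitochondrion, had values that depended on the probe set. On day 2, 1370200_at was at -0.07, -0.21 and 0.29 and 1387878_at at -0.13, -0.08 and 0.40, and on day 4 they were at -0.36, -0.21 and 0.25 and at -0.34, -0.22 and 0.22. On day 7, 1370200_at was at -0.62, -0.55 and -0.84 and 1387878_at at 0.05, 0.38 and -0.03. The values of the former were below those of the latter in every sample, by 0.80 on average (SD 0.133, n = 3). On day 2 the former minus the latter was -0.061 on average and on day 4 0.0079, so that the days 2 and 4 differences did not overlap with those of day 7. How many other genes with several probe sets show such a gap was not counted. The annotation gives both Glud1 probe sets the same accession. The fit put 1370200_at at 0.628-fold on day 7 (interval 0.483 to 0.816, adjusted p = 0.26 over all probe sets) and 1387878_at at 1.10-fold (0.831 to 1.45, adjusted p = 0.816). At the level of the gene, the mean of both, Glud1 was at -0.27 ± 0.18 (SD, n = 3, adjusted p = 0.584) on day 7. The 3′ minus 5′ difference of the actin control probe sets, a measure of RNA integrity in injury against sham, was -0.79, -0.31 and -0.06 on day 2, -0.35, 0.38 and 0.23 on day 4, and -0.88, -0.44 and -0.88 on day 7. A lower value means less 3′ bias in injury relative to sham. The part of this measure in the difference between the Glud1 probe sets was not tested.

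Glul, glutamine synthetase, the marker of hepatocytes around the central vein, had the smallest p among the members for a difference between days. As a gene it was at 0.36, 0.45 and 0.24 on day 2, at -0.06, 0.04 and -0.53 on day 4, and at 0.04, -0.04 and 0.15 on day 7. All 3 samples of day 2 were above all of the other days. How many of all genes separate a day in this way was not counted, and the F test gave Glul an adjusted p of 0.535. Day 2 was 1.28-fold (interval 1.02 to 1.59, unadjusted p = 0.0363, adjusted p = 0.622 in limma), and day 4 minus day 2 was -0.54 (interval -0.99 to -0.08, adjusted p = 0.645). The size depended on the probe set. On day 2, 1367633_at was at 0.66 ± 0.27, 1386870_at at 0.30 ± 0.07 and 1367632_at at 0.09 ± 0.0041 (SD, n = 3), and on day 7 the first was at 0.33 ± 0.27 and the last at -0.26 ± 0.18. All 3 carry the same accession, and 0 of 3 passed on any day.

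Gls2, liver glutaminase, which releases ammonia from glutamine beside the urea cycle, was at -0.01, 0.18 and 0.27 on day 2, at 0.15, -0.27 and -0.27 on day 4, and at 0.14, 0.05 and -0.16 on day 7. It had values on either side of 0 on each day. Its mean of the 3 days was 1.00-fold (interval 0.885 to 1.14, adjusted p = 0.987).

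In the mean of the 3 days, the cytosolic transaminases were the members farthest from 0, in opposite directions. Gpt, alanine transaminase, which takes the amino group of the alanine that muscle sends to the liver, was at -1.08, -0.66 and -0.0019 on day 2, at 0.07, -0.32 and -0.50 on day 4, and at -0.89, -0.33 and -1.28 on day 7. It lay below 0 in 8 of 9 samples. The daily means were -0.58 ± 0.54, -0.25 ± 0.29 and -0.83 ± 0.48 (SD, n = 3). The mean of the 3 days was 0.681-fold (interval 0.544 to 0.852, unadjusted p = 0.00418, adjusted p = 0.346 in limma and 0.109 with the variance trend), and day 7 was 0.561-fold (interval 0.38 to 0.829, adjusted p = 0.33).

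Gpt was correlated with a measure of RNA integrity across the samples, and was lower where injury had less 3′ bias relative to sham. The 3′ minus 5′ difference of the GAPDH control probe sets was -0.42, -0.19 and 0.11 on day 2, 0.14, 0.31 and -0.08 on day 4, and -0.39, -0.21 and -0.80 on day 7. Its correlation with Gpt was r = 0.888 and rho = 0.9 over the 9 arrays (exact permutation p = 0.00142 and 0.00203, adjusted 0.0283 and 0.0406 over the 20 relations of 10 members with the GAPDH and actin measures). It was 0.947 without the 2 arrays farthest from the median of the GAPDH measure and 0.869 on deviations from the day means. With the actin measure Gpt had r = 0.659 (exact p = 0.0573, adjusted 0.369) and rho = 0.667 (exact p = 0.0589, adjusted 0.294). These relations were computed after the values had been seen, none of the other 18 passed, and the part of RNA integrity in the Gpt ratios was not tested.

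Got1, the cytosolic aspartate transaminase, which moves amino groups between aspartate and glutamate, was at 0.18, 1.75 and -0.52 on day 2, at 0.72, -0.32 and -0.13 on day 4, and at 0.84, 0.90 and 0.55 on day 7. Day 7 was the only day with all samples above 0, at 0.76 ± 0.19 (SD, n = 3; 1.69-fold, interval 0.918 to 3.13, adjusted p = 0.519). Sample 2 of day 2 was higher than the rest. With it the mean of day 2 was 0.47 ± 1.16 and without it -0.17. In that sample the median of 11 skeletal muscle markers was -0.71 and that of 10 kidney markers -0.39, both the lowest of the 9 samples. The median of 11 hepatocyte markers, 0.24, was the highest, and Cps1, Ass1, Asl and Glul were also highest in it. Among the lists given below, the regulators of urea cycle genes had their highest median there too (0.43). These lists are named because they were extreme in this sample, and the other marker lists were not. The part of the named lists and genes in the Got1 value was not tested. Over the 3 days Got1 was 1.36-fold (interval 0.953 to 1.93, adjusted p = 0.598).

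**Figure D3:**
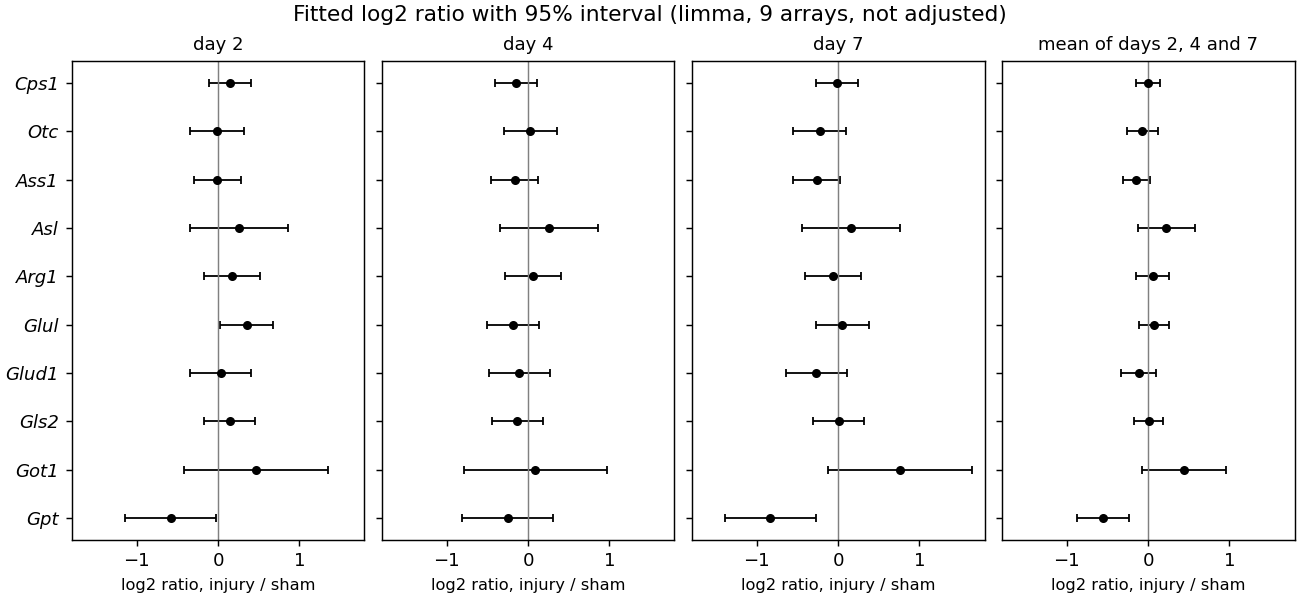
Fitted log2 ratio of injury over sham (horizontal axis) with its 95% interval from limma for the 10 genes, by day and for the mean of the 3 days; points are estimates and bars intervals not adjusted for the number of genes. For the mean, the interval of Gpt ends at -0.23 and those of the other 9 genes include 0.

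Across the 9 arrays, 0 of the 45 pairs of members had a correlation that passed after adjustment. The smallest p belonged to Ass1 with Glud1 (r = 0.749, exact p = 0.0216, adjusted 0.505; rho = 0.617, exact p = 0.0857, adjusted 0.643), Cps1 with Ass1 (r = 0.698, exact p = 0.0392, adjusted 0.505; rho = 0.5, exact p = 0.178, adjusted 0.727) and Otc with Glud1 (r = 0.673, exact p = 0.0462, adjusted 0.505; rho = 0.717, exact p = 0.0369, adjusted 0.553). Without the 2 arrays farthest from the median of the gene named first, r was 0.903, 0.716 and 0.488. On deviations from the day means it was 0.647, 0.84 and 0.628.

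Of 110 other genes in 5 lists around these enzymes, 94 were measured, and 0 passed on any of the 3 days or in their mean. At an unadjusted p under 0.05 there were 7 higher and 5 lower on day 2, 4 and 3 on day 4, and 4 and 9 on day 7, or 12.8%, 7.45% and 13.8% of the 94 beside the shares of all genes given above. Of the 38 measured genes of amino acid catabolism, 20 were above 0 on day 2, 24 on day 4 and 11 on day 7 (medians 0.01, 0.02 and -0.14). With the smallest p in each direction were Tat, the glucocorticoid-induced tyrosine transaminase, at 0.97 ± 0.37 (adjusted p = 0.269, and 0.0527 with the variance trend) and Bckdhb, of branched-chain breakdown, at -0.43 on day 2. On day 4 these were Ftcd, of histidine breakdown, at 0.31 and Acadsb at -1.21, and on day 7 Acadsb at 1.87 ± 1.71 and Cbs, of transsulfuration, at -0.41.

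The 14 measured genes of urea cycle support and mitochondrial exchange had medians of 0.10, 0.06 and -0.14 on the 3 days. Slc25a15, the carrier that brings ornithine into the mitochondrion, was at -0.23 on day 2 and Slc25a13, the aspartate and glutamate carrier, at -0.14 on day 4. Slc25a22, a mitochondrial glutamate carrier, was at 0.16 on day 2 and 0.54 ± 0.13 on day 4 (adjusted p = 0.46). Slc14a2, a urea transporter, was at 0.27 and Mdh2, mitochondrial malate dehydrogenase, at -0.24 on day 7. Among 14 genes of glutamate, glutamine, ornithine and proline (medians -0.07, -0.05 and -0.11) these were Nit2 at 0.26 and Gad1 at -0.81 on day 2, Kyat3 at 0.44 and Odc1, of polyamine synthesis, at -0.22 on day 4, and Asns, asparagine synthetase, at 0.37 and Kyat3 at -0.35 on day 7.

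Among 16 genes of amino acid and ammonia transport (medians 0.05, 0.08 and 0.16) the smallest p belonged to Slc3a1 at 0.55 and the ammonia channel Rhcg at -0.62 on day 2, Slc1a5, a glutamine transporter, at 0.80 and Slc7a2, an arginine transporter, at -0.26 on day 4, and Slc1a5 at 0.80 and Slc3a2, the heavy chain of several amino acid exchangers, at -0.52 ± 0.09 on day 7 (adjusted p = 0.214). The 12 measured regulators had medians of 0.25, -0.20 and 0.02. Foxo1 was at 0.84 and Foxa2 at -0.66 on day 2, and Klf15, an inducer of amino acid breakdown genes, at 0.45 and Foxa2 at -0.91 on day 4. On day 7, Hnf4a, a master regulator of hepatocytes, was at 0.94 ± 0.33 (adjusted p = 0.205, and 0.0726 with the variance trend) and Foxa2 at -0.64. None of these genes passed on a day. In the mean of the 3 days Foxa2, at -0.74, had an adjusted p of 0.222 in limma and 0.0484 with the variance trend.

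The labels name no tissue, and lists of markers gave these values beside the members. The 11 measured hepatocyte markers had medians of 0.12, -0.13 and -0.13 on days 2, 4 and 7, the 7 of periportal hepatocytes, which include Cps1, Ass1 and Gls2, 0.15, -0.13 and -0.02, and the 8 of pericentral hepatocytes, which include Glul, 0.04, 0.12 and -0.25. The 14 exocrine pancreas markers had a median of 2.76 in sample 2 and 1.33 in sample 3 of day 4 and between -0.20 and 0.13 in the other 7 samples, and 13 of the 14 were above 0 in the mean of day 4. The 4 red cell markers had medians of 0.03, 0.72 and 0.32 on the 3 days. Medians of 11 skeletal muscle markers were -0.16, -0.11 and -0.09, and of 10 kidney markers 0.10, -0.19 and 0.41. Those of 6 small intestine markers were 0.11, -0.08 and 0.35, and of 4 skin markers 0.58, 0.32 and 0.34. The 8 macrophage and neutrophil markers had 0.09, 0.25 and -0.02, and the 9 stellate cell and fibroblast markers 0.15, -0.07 and -0.10. The part of these lists in the values of the members was not tested.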

How the data were processed

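The authors deposited 1 table of log2 ratios, per the values themselves, with 1 value per probe set and sample. The sources used here state no scaling, software or genome build, and the direction, injury over sham, is likely from the channel order in the labels. The members and gene lists were chosen with earlier results of these data known.

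Of 15923 probe sets, 57 controls were left out. The platform's annotation gave 1 symbol to 12783, several to 312 and none to 2771, and the gene IDs of the GRCr8 table changed 0 symbols. Each array was centred on its median (between -0.13 and 0.16 before centring), and probe sets of a gene were averaged. Each ratio was searched for a quotient of whole numbers up to 20000 within 1e-09. Rank correlations of these numbers ran from 0.664 to 0.717 among days 2, 4 and 7 (36 pairs) but from -0.0026 to 0.02 where day 1 met a later day (27 pairs), so day 1 was left out. The ratios of the 9 arrays had r between -0.105 and 0.148.

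Day means were fitted with lmFit and eBayes of limma 3.58.1 (R 4.3.3; 6 residual degrees of freedom), with p-values adjusted by Benjamini-Hochberg over all genes, threshold 0.05. The fit was tested on data simulated with the spread of these genes. Of genes changed by 0.5 on the log2 scale it called 0% on day 2 and 34% in the mean of the 3 days. For a change of 1 these shares were 40% and 76%, with 10 false calls in each of these comparisons. The simulated set held 200 changed genes, 50 each at 0.5, 1, 2 and 4, and many large changes ease the adjusted threshold. In the real data 0 genes passed on any day, so the shares may be too high for a member. Alternatives were no centring, scaled arrays, a variance trend on brightness (unrecovered ratios counted at 20000), a robust prior, array weights, the brightest probe set, a filter on dim probe sets, each day alone, the sample number as a block, and each array left out. The brightest probe set of a gene was ranked by its recovered whole numbers, with 20000 for the rest. For Cps1 the chosen probe set had 1 recovered ratio and the other 2, and for Glud1 0 and 2. For Glul the chosen one and 1386870_at had 2 each. Ratios shifted at random were recovered in 11.9% to 13.55% of cases per array, so this ranking is uncertain. Added after seeing the data were Asl by its own accession and the relations with RNA integrity. Correlations used exact permutation, two-sided (Python 3.11.15). All members are named. Of the other lists, the gene with the smallest p in each direction and day is named where none passed, and marker lists are given by their medians.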

Additional observations from a re-analysis of the deposited data

Results flagged for a closer look

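Cps1 lay above 0 in all 3 samples of day 2 and below 0 in all 3 of days 4 and 7. Its day 4 minus day 2 was -0.30 (limma adjusted p = 0.705) and its day 7 minus day 2 was -0.17 (adjusted p = 0.81), so the differences did not pass when tested. Its mean of day 7 was 0.07 without centring and 0.09 with the probe set ranked brightest. One of its probe sets, 1384334_at, had the same opposition between days 2 and 7, with a difference of -0.31 (adjusted p = 0.712 over all probe sets). The other, 1370151_at, did not: it averaged 0.09 on day 7, with 2 of 3 samples above 0, and its day 7 minus day 2 was -0.02 (adjusted p = 0.983).

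Of the Glul probe sets, 1367633_at lay above 0 in all samples of days 2 and 7 and below 0 in all of day 4. Day 4 minus day 2 was -0.99 (unadjusted p = 0.00596, adjusted p = 0.53) and day 7 minus day 4 was 0.66 (adjusted p = 0.421), neither passing in limma. Another, 1367632_at, lay above 0 on day 2 and below 0 on day 7 in all samples, with a difference of -0.35 (adjusted p = 0.727).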

How the results depend on the processing

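Under each alternative, also with Asl by its own accession, 0 member genes and 0 member probe sets were called in any comparison, and the smallest adjusted p of a member gene in them was 0.109 (Gpt, mean of the 3 days, variance trend). With the sample number as a replicate block 0 members were called, and 0 genes in place of 4 in the mean of the 3 days. Same-numbered samples had correlations of their deviations between -0.041 and 0.068. Ratios of different arrays of days 2, 4 and 7 were themselves only weakly correlated (r between -0.11 and 0.15). The check therefore cannot decide whether the sample number pairs the samples. Of 1320 recomputed member values, 1303 moved by less than 1 SD between replicates, and 47 turned sign, 0 of them with a p under 0.05 at first. Many of the 1320 could not move, so this share does not measure robustness. The variance trend, the robust prior and the replicate block leave the fitted values unchanged. Leaving out an array of another day does not change a daily mean, and the choice of probe set changes no gene with a single probe set. Glud1 on day 7 moved from -0.27 to 0.13 with the probe set ranked brightest and to -0.67 where the dim filter, which also drops probe sets with no recovered ratio, removed it. Glul on day 2 moved from 0.35 to 0.66 with the probe set ranked brightest. These rankings rested on few recovered ratios. Over the alternatives the number of all genes called lay between 0 and 15 on day 2, 0 and 2 on day 4, 0 and 5 on day 7, and 0 and 34 in the mean of the 3 days, where the fits that left out 1 array called 0 to 3, and 0 without sample 2 of day 2, sample 1 or 2 of day 4, or any sample of day 7. Without centring the arrays, the sign turned for the daily means of Arg1 on day 7, Otc on day 4 and Glud1 on day 2, each then within 0.02 of 0, beside Cps1 on day 7. Correlations between members that passed numbered 0 without centring and when any 1 array was left out.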
